A study of Mus musculus with 40 samples.

Results

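This comparison set the small RNA of the hypothalamus against that of gastrocnemius muscle across all 1894 entries of the deposited miRNA table. Its members were the 5 hypothalamus input libraries and the 5 muscle input libraries, chosen by tissue and library type from the labels, 10 of the 40 libraries of the series. "Input" is the total small RNA of a tissue before any pull-down. Hypothalamus replicates 1 to 5 came from mice 2, 4, 6, 8 and 9, and muscle replicates 1 to 5 from mice 1, 2, 3, 8 and 9, so that mice 2, 8 and 9 gave both tissues. Replicates within a tissue were therefore separate animals. Both groups were alike in genotype and treatment. All were UCP1;UPRT male mice of 8 to 12 weeks, kept on standard chow, from a cross of the Ucp1-cre line Tg(Ucp1-cre)1Evdr/J with the CAG-GFP,-Uprt line Tg(CAG-GFP,-Uprt)985Cdoe/J. All received 4-thiouracil (4TU) at 50 mg/kg by intraperitoneal injection, 4 times at intervals of 48 h. The promoter of Ucp1, which encodes the uncoupling protein of brown adipocytes, drove the Cre. The labels name no untreated or Cre-negative animals, and give the genotype in the design text of the series and not for single mice. Both groups are whole tissue, so that fewer cells of a type and less RNA per cell cannot be told apart.

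A mature miRNA is a short RNA cut from one arm (5p or 3p) of a hairpin. It guides Argonaute proteins to messenger RNAs that pair with its seed, bases 2 to 8, and entries with one seed are expected to share many targets. Neurons, glia, striated muscle and blood cells each hold characteristic miRNAs. In the brain these include miR-124, miR-9 and many products of the imprinted Dlk1-Dio3 region. In skeletal muscle they are the myomiRs, led by miR-1, miR-133 and miR-206, of which miR-206 is typical of slow fibres and regenerating muscle.

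The mature sequences below are those of miRNAs on which the results turn, from RefSeq on GRCm38.p6, with the seed in capitals. A total of 64 of the 79 miRNAs given here with values were matched by name in that table. The first set holds the hypothalamus-high miR-7 pair, which share a seed, and the brain miRNAs miR-9-5p, miR-9-3p, miR-128-3p and miR-127-3p.
miR-7a-5p: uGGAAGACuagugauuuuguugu
miR-7b-5p: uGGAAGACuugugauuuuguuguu
miR-9-5p: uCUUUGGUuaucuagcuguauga
miR-9-3p: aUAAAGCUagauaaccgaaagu
miR-128-3p: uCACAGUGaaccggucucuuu
miR-127-3p: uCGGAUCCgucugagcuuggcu
The second set holds muscle-high miRNAs. The pair miR-196a-5p and miR-196b-5p share a seed, as do miR-10a-5p and miR-10b-5p.
miR-206-3p: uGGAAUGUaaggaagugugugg
miR-133b-3p: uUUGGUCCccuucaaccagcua
miR-196a-5p: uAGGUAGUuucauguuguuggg
miR-196b-5p: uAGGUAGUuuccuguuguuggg
miR-10a-5p: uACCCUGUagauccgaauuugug
miR-10b-5p: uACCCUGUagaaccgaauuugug
The third set holds pairs of one seed, miR-92b-3p with miR-25-3p and let-7e-5p with let-7f-5p, that were called in opposite directions on the scale of the tests (TMM, below). With total count all 4 were higher in hypothalamus.
miR-92b-3p: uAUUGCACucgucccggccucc
miR-25-3p: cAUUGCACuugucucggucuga
let-7e-5p: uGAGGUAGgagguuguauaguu
let-7f-5p: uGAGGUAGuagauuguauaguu
The fourth set holds the miR-200 group, high in 2 hypothalamus libraries. It falls into the seed of miR-200b, miR-200c and miR-429 and that of miR-200a and miR-141.
miR-200b-3p: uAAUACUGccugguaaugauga
miR-200c-3p: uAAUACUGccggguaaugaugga
miR-429-3p: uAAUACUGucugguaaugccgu
miR-200a-3p: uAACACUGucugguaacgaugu
miR-141-3p: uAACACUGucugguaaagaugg

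The libraries held 152980 to 5562423 counts in hypothalamus (median 1236469) and 3750389 to 4726588 in muscle (median 4231158). The lowest total was that of hypothalamus replicate 4. Across 333 abundant entries, hypothalamus replicates 1 to 3 correlated at 0.965 to 0.984 with each other on log values, and the muscle replicates at 0.982 to 0.997. Replicate 4 correlated at 0.761 to 0.809 with hypothalamus replicates 1 to 3, at 0.877 with hypothalamus replicate 5 and at 0.715 to 0.729 with muscle. Hypothalamus replicates 1 to 3 and 5 correlated at 0.373 to 0.483 with muscle. Replicate 5 correlated at 0.872 to 0.903 with hypothalamus replicates 1 to 3. These correlations run across entries of the same libraries and are a description, with no test.

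Hypothalamus replicate 4 held muscle and liver miRNAs. Its level of the myomiRs miR-206-3p, miR-1a-3p, miR-133b-3p and both arms of miR-133a was 29.3% to 36.8% of the muscle mean. For miR-1a-3p it had 178996 CPM (counts per 1000000 counts of a library), against 1468 to 2475 CPM in the other 4 hypothalamus libraries. The hepatocyte miRNA miR-122-5p stood at 17083 CPM there, against 102.6 to 323.1 CPM in the other 4. Of 306 entries with at least 50 CPM in replicate 4, in replicate 5 or in the mean of replicates 1 to 3, replicate 4 was at least 4-fold above that mean in 34 and at least 4-fold below it in 27. Replicate 5 was so in 16 and 12 entries, and 14 and 7 were common to both libraries. The entries common to both and higher included miR-375-3p and the miR-200 group. Values without replicate 4, or without both, are given for the named miRNAs they moved most. The source of these RNAs was not tested.

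**Figure D1:**
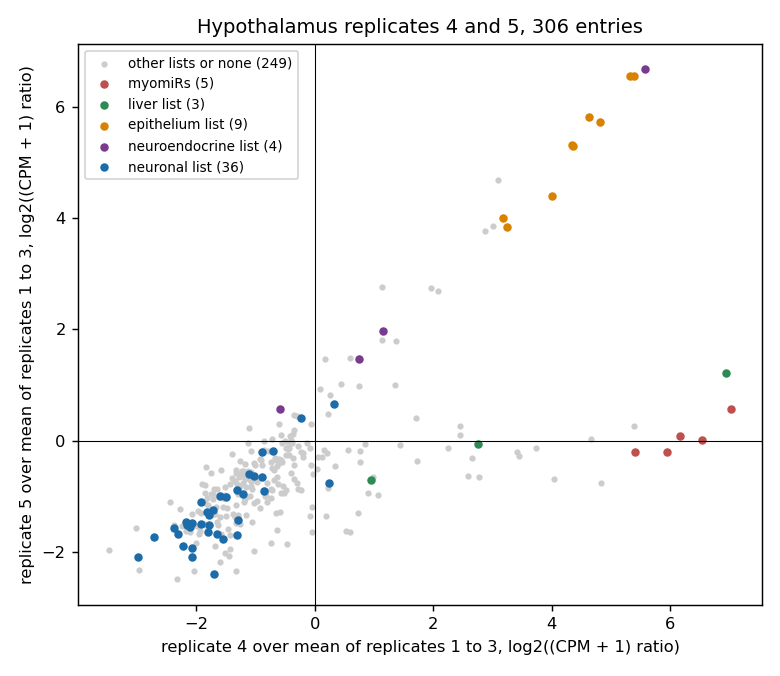
Log2 ratio of CPM + 1 in hypothalamus replicate 4 (x axis) and replicate 5 (y axis) over the mean of replicates 1 to 3, for 306 miRNA entries, coloured by list. The myomiRs and miR-122-5p lie far right at a y value near 0 to 1, while the epithelium list and miR-375-3p lie high on both axes.

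The tissues differed in how their counts were spread. In muscle, miR-1a-3p and miR-1b-5p, which share the same reads at a constant ratio, took 79.7% to 84.5% of all counts. They took 23.9% in hypothalamus replicate 4 and 0.196% to 0.33% in the other 4 hypothalamus libraries. With entries that share reads counted once, 42 to 65 entries made up 90% of the counts of a hypothalamus library, against 5 to 7 of a muscle library. A share of the library (CPM) and a level relative to most other miRNAs therefore give different answers. The trimmed mean of M values (TMM), the scaling of the tests, aligns the bulk of the miRNAs, with factors of 2.24 to 4.37 in hypothalamus and 0.288 to 0.385 in muscle. Relative to it, scaling by total count moved the median log2 fold change by 3.22, and total count with the miR-1 entries left out moved it by 0.855. For miR-30a-5p the CPM were 18048, 16165, 17035, 14783 and 14577 in hypothalamus replicates 1 to 5 and 11939, 12380, 8909, 12782 and 10867 in muscle replicates 1 to 5. Every hypothalamus value was thus above every muscle value as a share of the library, while its log2 fold change of hypothalamus over muscle was -2.68 on the TMM scale. Below, log2 fold changes (or log2 ratios of the tissues) are TMM-scaled values from edgeR's quasi-likelihood test, always hypothalamus over muscle, and "called" means a Benjamini-Hochberg adjusted p under 0.05 over all 460 entries tested.

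Of the 460 entries tested, 210 (45.7%) were called higher and 161 (35%) lower in hypothalamus, 80.7% in either direction, and 89 were not called. The groups did not overlap in CPM in 367 entries (79.8%). Counts of each list below are to be read against these shares. The split between higher and lower depended on the scaling. Of the calls, 58.3% were higher with the relative log expression (RLE) factors, against 56.6% with TMM. The split was 257 to 112 with total count minus the miR-1 entries, and 378 to 34 with total count. All 210 entries called higher were so under each of these 4 scalings. Each of the others moved the median log2 fold change up from TMM, by 0.122 with RLE, 0.855 without the miR-1 entries and 3.22 with total count. A higher call thus had little room to be lost, and here and below "under all 4" adds little to a higher call with TMM. Of the 161 called lower, 34 (7.39% of the 460 tested) were called lower under each. In 33.7% of the entries tested the sign changed among the scalings. Without hypothalamus replicate 4, 254 (49.8%) were higher and 163 (32%) lower of 510 tested. Without replicates 4 and 5, 249 (45.6%) were higher and 35.3% lower of 546 tested.

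**Figure D2:**
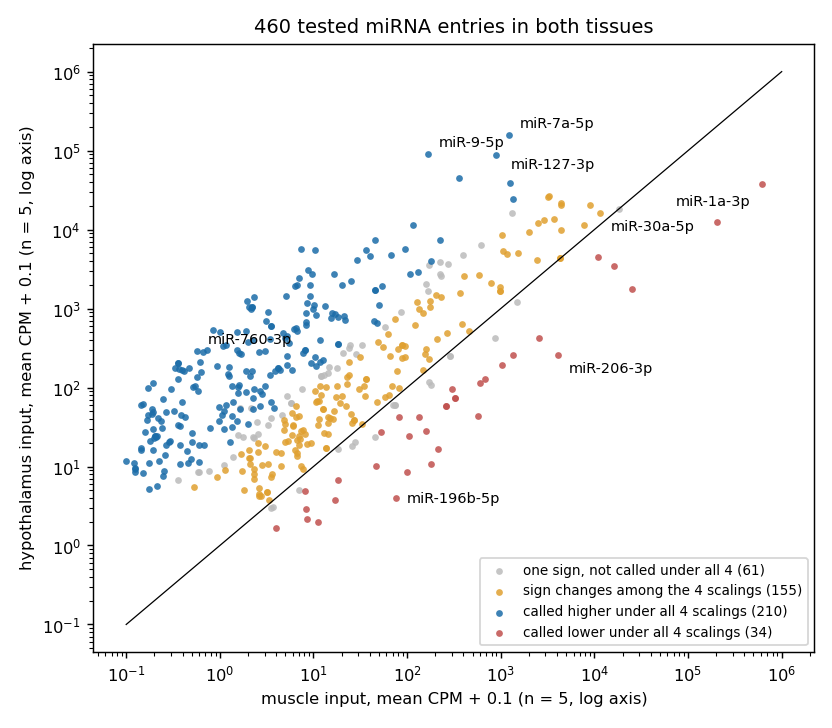
Mean CPM + 0.1 of the 460 tested entries in hypothalamus (y axis) and muscle (x axis) on log axes, n = 5 each, coloured by whether the call held under 4 scalings; the line marks equal CPM. The 210 entries called higher under all 4 lie above the line, the 34 called lower under all 4 lie below it, and those whose sign changed lie mostly between them.

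The neuronal list was higher in hypothalamus almost throughout. Of its 43 tested entries, 42 were called higher, each under all 4 scalings, with a median log2 fold change of 5.18 against 0.39 over all tested entries. Over all tested entries 45.7% were called higher. Members without muscle counts, in this and other lists, could be tested only through their hypothalamus counts. Some entries of the list share reads, and like the other lists it was chosen with earlier results of these data known. The list took 6.23% to 23.9% of the hypothalamus counts and 0.172% to 0.222% of the muscle counts. The neuronal miRNA miR-124-3p, which represses non-neuronal genes, had 4738, 5068, 14379, 2472 and 1534 CPM in hypothalamus replicates 1 to 5 and 4.34, 9.29, 4.06, 8.43 and 9.87 CPM in muscle. Every hypothalamus library was far above every muscle library. Its log2 fold change was 6.22 (SE 0.54, adjusted p = 7.09e-07). The neural progenitor and neuron miRNA miR-9-5p had 132123, 132871, 112963, 29935 and 45336 CPM in hypothalamus and 125, 167, 130.1, 182.4 and 221 CPM in muscle. Replicates 4 and 5 were the lowest of the hypothalamus libraries for it, and the groups stayed far apart. Its log2 fold change was 5.81 (SE 0.46, adjusted p = 4.13e-07). The other arm of its hairpin, miR-9-3p, gave 5.74.

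The forebrain miRNA miR-128-3p was present in both tissues, with 60074, 45316, 56526, 15562 and 18953 CPM in hypothalamus replicates 1 to 5 and 1200 to 1356 CPM in muscle. It had the smallest rise of the list, a log2 ratio of 1.67 (SE 0.32, adjusted p = 0.000409). It is made from an intron of R3hdm1 (chr1:128202404-128202424, plus strand) and an intron of Arpp21 (chr9:112118644-112118664, minus strand), on GRCm38.p6 with genes from GENCODE vM21. The synaptic miRNA miR-137-3p had a log2 fold change of 5.82. For miR-153-3p, from an intron of Ptprn2, it was 5.98, and for miR-1298-3p, from an intron of the serotonin receptor gene Htr2c, 5.89. In both miR-124-3p and miR-153-3p hypothalamus replicate 3 was the highest library, at 14379 and 1593 CPM. The 1 neuronal entry called lower, chosen after its value was seen, was miR-149-5p, with 689, 738, 1137, 345 and 264 CPM in hypothalamus and 264, 368.9, 311, 478 and 528 CPM in muscle. The groups overlapped, and its log2 fold change was -2.62 with TMM and 0.71 with total count.

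A total of 14 tested entries had 0 counts in muscle after the estimated counts were rounded, and all 14 were called higher. Such entries could be tested only through their hypothalamus counts, so that a lower call was not open to them. The deepest of them, chosen after their values were seen, were miR-346-5p and miR-448-3p. The entry miR-346-5p had 180, 171, 143, 6 and 278 counts in hypothalamus replicates 1 to 5, and 0 in each muscle library, all after rounding. Against a floor of 3 counts over the muscle group it was at least 64.0-fold higher in hypothalamus on the TMM scale and at least 574-fold higher with total count. For miR-448-3p, also from an intron of Htr2c, the hypothalamus libraries had 91, 72, 59, 4 and 200 counts, and it was at least 35.1-fold higher with TMM and at least 314-fold higher with total count.

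All 5 tested entries of a list of miRNAs that earlier results of these data had given as high in hypothalamus were called higher, with a median log2 fold change of 6.41. The list was chosen on these libraries and is no independent evidence of direction. For miR-873a-5p, from an intron of Lingo2, the CPM were 215, 366, 281, 71.2 and 98.9 in hypothalamus and 0.236, 0.128, 0.202, 0.131 and 0.6 in muscle, and its reads are shared with miR-873b. For miR-760-3p they were 389, 450.6, 368.7, 111 and 140.3 in hypothalamus and 0.0591, 0.894, 0.115, 0.476 and 0.8 in muscle. For miR-1224-5p, from an intron of Vwa5b2, they were 162, 172, 149.8, 39.2 and 44.4 in hypothalamus, and muscle held 2 counts in all, a ratio of 105.8 with a 95% interval of 29.2 to 875 for counting error only. All 3 were under 1 CPM in every muscle library. Outside the lists, miR-6540-5p was among the largest rises, with 207, 311, 204.3, 70.2 and 84.1 CPM in hypothalamus, 0.177, 0.128, 0.345, 0.317 and 0.2 CPM in muscle and a log2 fold change of 5.95.

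The miR-7 family and miR-375 mark neuroendocrine cells. Of the 5 tested entries of that list, 4 were called higher and 1 lower, or 3 and 2 without hypothalamus replicates 4 and 5. Shares over all tested entries were 45.7% and 35%. The list took 12.6, 17.4, 9.45, 25.02 and 42.8 percent of the counts in hypothalamus replicates 1 to 5 and 0.129, 0.167, 0.146, 0.191 and 0.217 percent in muscle. The miRNA with the highest mean CPM in hypothalamus, miR-7a-5p, had 101961, 141163, 75607, 177714 and 293247 CPM there and 930.5, 1202, 1075, 1380 and 1531 CPM in muscle. Replicates 4 and 5 were the highest, and all 5 lay above muscle. Its log2 fold change was 3.94 (SE 0.53, adjusted p = 2.21e-05), and 3.03 without those 2 libraries. It is made from an intron of Hnrnpk (chr13:58392841-58392863, minus strand) and from a locus in no annotated host gene (chr7:78888295-78888317, plus strand). The second arm of the chromosome 7 hairpin, miR-7a-2-3p, gave 4.01. The second arm of the chromosome 13 hairpin, miR-7a-1-3p, chosen after its value was seen, was the entry called lower, at -1.58 with TMM and 1.76 with total count. For miR-7b-5p the log2 fold change was 3.94, and 2.71 without replicates 4 and 5.

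The islet and endocrine miRNA miR-375-3p had 388, 349, 383.7, 17733 and 38126 CPM in hypothalamus and 85.2, 118, 95.0, 126 and 148 CPM in muscle. Replicates 4 and 5 were far above the other 3. Its log2 fold change was 3.72 (SE 1.31, adjusted p = 0.0203). Without replicates 4 and 5 it was -1.72, called lower. The 7 tested entries of the epithelium list (miR-200a, miR-200b, miR-200c, miR-141, miR-429, miR-182 and miR-183) did likewise. All 7 were called higher with 5 libraries, against 45.7% of all tested entries, with log2 fold changes of 2.24 to 3.55. Without replicates 4 and 5, 0 were called higher and 4 lower. The most abundant, miR-200a-3p, an epithelial miRNA that targets Zeb factors, had 184, 59.2, 154.3, 3759 and 7074 CPM in hypothalamus and 22.3, 25.5, 19.5, 26.5 and 32.8 CPM in muscle. In replicates 1 to 3 the CPM of the list were also above muscle, while on the TMM scale the 4 were called lower. The libraries at these levels in miR-375-3p and the miR-200 group are also the ones highest in miR-7a-5p.

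The glial and ventricular lists were higher throughout. All 6 tested entries of the oligodendrocyte list were called higher, under all 4 scalings, with a median log2 fold change of 4.52. The share called higher over all tested entries was 45.7%. The oligodendrocyte differentiation miRNA miR-219a-2-3p had 1942, 1227, 1117, 386 and 502 CPM in hypothalamus and 1.74, 1.6, 1.97, 2.27 and 3.07 CPM in muscle, a log2 ratio of 5.62 (SE 0.45, adjusted p = 4.15e-07). Its reads are shared with miR-219b-5p, which is also in the list. For miR-338-3p, from an intron of Aatk, the log2 fold change was 1.76, and for miR-219a-5p 3.49. All 6 tested entries of the ependyma and choroid plexus list were called higher, with a median of 3.86. The ciliated cell miRNA miR-34c-5p had 6359, 7035, 6711, 2669 and 4489 CPM in hypothalamus and 32.6, 48.7, 32.5, 31.3 and 37.9 CPM in muscle, and miR-34b-5p, from the same primary transcript, gave 3.73 against 3.99 for miR-34c-5p. The choroid plexus miRNA miR-204-5p, from an intron of Trpm3 (chr19:22750610-22750631, plus strand), had 1161, 868, 1154, 602 and 535 CPM in hypothalamus and 14.8, 16.6, 10.8, 19.7 and 22.3 CPM in muscle. In all of these the groups did not overlap, as in 79.8% of all tested entries.

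**Figure D3:**
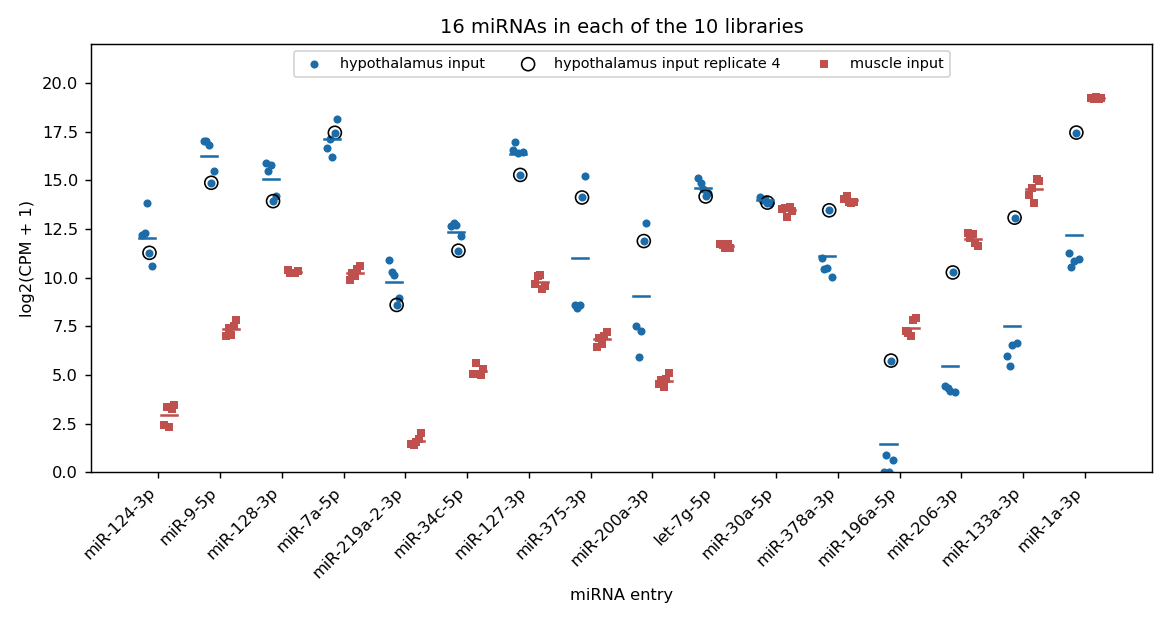
Log2(CPM + 1) of 16 miRNAs in the 5 hypothalamus libraries (circles, left of each pair) and the 5 muscle libraries (squares, right), with the mean of the log values as a line and hypothalamus replicate 4 ringed. For miR-1a-3p and miR-206-3p the ringed library lies between the other 4 hypothalamus libraries and muscle, and for miR-375-3p and miR-200a-3p 2 hypothalamus libraries stand above the other 3.

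The imprinted Dlk1-Dio3 region of chromosome 12 carries many miRNA hairpins, whose miRNAs are made from the maternal copy. Of its 77 tested entries, 62 were called higher, each under all 4 scalings, 5 were called lower and 10 were not called. Over all tested entries 45.7% were called higher. The 77 count some shared reads more than once, such as those of miR-136 with miR-3071 and of miR-337-5p with miR-3544-3p. The median log2 fold change was 2.84. The list took 7.81% to 21.2% of the hypothalamus counts and 0.18% to 0.247% of the muscle counts. Its most abundant product, miR-127-3p (chr12:109592888-109592909, plus strand), lies antisense to an exon of the retrotransposon-like gene Rtl1, which it can target. It had 97723, 127181, 87531, 39646 and 88617 CPM in hypothalamus and 827, 1064, 1132, 678 and 762 CPM in muscle, a log2 ratio of 3.41 (SE 0.34, adjusted p = 2.39e-06). Hypothalamus replicate 4 was the lowest of its group, and still far above muscle. At the head of the region, miR-770-3p, in an exon of the non-coding RNA Meg3, had 1611, 2137, 1529, 373 and 606 CPM in hypothalamus and 1.42, 1.79, 2.42, 2.45 and 1.2 CPM in muscle, with a log2 fold change of 6.10. Further along, the log2 fold changes were 2.66 for miR-434-5p, 1.87 for miR-379-5p and 4.13 for miR-300-3p. Members of one imprinted region thus differed in size of change, from 0.99 to 6.13 among those called higher. The 5 called lower, named after their values were seen, were miR-1193-3p, miR-299a-5p and miR-299b-3p, whose values were identical, miR-493-5p and miR-494-3p. Their log2 fold changes were -2.52 to -1.04 with TMM and changed sign among the 4 scalings.

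On the muscle side, all 7 tested myomiR entries were called lower in hypothalamus, under all 4 scalings, with a median log2 fold change of -6.82, or -10.96 without replicate 4. Among all tested entries 35% were called lower, and 7.39% under all 4 scalings. The list took 0.342, 0.204, 0.26, 24.9 and 0.274 percent of the counts in hypothalamus replicates 1 to 5 and 83.1% to 86.5% in muscle. The contraction-associated miRNA miR-1a-3p had 2475, 1468, 1842, 178996 and 1949 CPM in hypothalamus and 622109, 600720, 633745, 597968 and 602984 CPM in muscle. Replicate 4 was the one hypothalamus library near muscle, and the groups did not overlap. The log2 fold change was -6.82 (SE 1.73, adjusted p = 0.00304). Without replicate 4 it was -11.40. For miR-206-3p (chr1:20679055-20679076, plus strand), which lies in an exon of the non-coding Gm28653, the CPM were 20.5, 19.2, 16.9, 1227 and 16.3 in hypothalamus and 4921, 4171, 4822, 3446 and 3134 in muscle. The log2 fold change was -6.84 (SE 1.58, adjusted p = 0.00156), and -10.92 without replicate 4. The myoblast proliferation miRNA miR-133a-3p had 62.0, 42.9, 90.8, 8646 and 97.2 CPM in hypothalamus and 19174, 24972, 14710, 34618 and 32102 CPM in muscle, with -6.62, or -11.43 without replicate 4. Its relative miR-133b-3p (chr1:20682834-20682855), in the same Gm28653, gave -7.14, or -10.998 without replicate 4, which stood at 210.5 CPM against 1.13 to 3.37 CPM in the other 4 hypothalamus libraries. The slow-fibre miRNA miR-499-5p, from an intron of the myosin gene Myh7b and chosen after its value was seen, differed least. It had 33.96, 20.3, 29.5, 31.0 and 23 CPM in hypothalamus and 24.1, 40.3, 41.4, 98.2 and 59.3 CPM in muscle, groups that overlapped, and a log2 fold change of -4.23.

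The miR-378 entries, products of mitochondria-rich tissue, were all called lower, 5 of 5 tested, against 35% of all tested entries. Their median log2 fold change was -5.40, or -6.88 without replicate 4. The most abundant, miR-378a-3p, had 2086, 1392, 1452, 11232 and 1038 CPM in hypothalamus and 16720, 19021, 15329, 14672 and 14868 CPM in muscle. Its log2 fold change was -5.15 (SE 0.85, adjusted p = 0.000117), and -6.58 without replicate 4, the hypothalamus library nearest to muscle. For the other arm, miR-378a-5p, it was -6.33, for miR-378b -5.92 and for miR-378c -5.40. Without replicate 4 these were -7.49, -6.88 and -7.17.

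The miRNAs of the Hox gene clusters, which follow the position of a tissue along the body axis, were lower as a group, 7 of 7 tested. Against this, 35% of all tested entries were called lower. The median log2 fold change of the list was -7.74, or -9.02 without replicate 4. For miR-196a-5p, from an intron of Hoxc5 and a locus near the Hoxb genes on chromosome 11, the CPM were 0, 0.836, 0, 52.3 and 0.539 in hypothalamus and 152, 140.8, 127.8, 227 and 241 in muscle. Replicate 4 was far above the other 4 hypothalamus libraries and below muscle. The log2 fold change was -9.41 (SE 1.44, adjusted p = 6.96e-05), and -11.37 without it. For miR-196b-5p, in an exon of Hoxa9 and chosen after its value was seen, hypothalamus had 3 counts in all and muscle 1582. All 3 were in replicate 4, at 19.6 CPM against 55.9 to 96.1 CPM in muscle, and the other 4 hypothalamus libraries had 0 counts after rounding, so that no fold is given. For miR-615-3p, from an intron of Hoxc5, the log2 fold change was -8.17, or -9.02 without replicate 4. The 2 members of the miR-10 seed were also called lower. In an intron of Hoxd3 and Hoxd4, miR-10b-5p had 122, 19.9, 56.6, 1900 and 38.3 CPM in hypothalamus and 2693, 2645, 3104, 2138 and 2266 CPM in muscle, a log2 ratio of -5.45 (SE 1.34, adjusted p = 0.00247), or -8.60 without replicate 4, the library nearest to muscle. For miR-10a-5p the groups overlapped through replicate 4, at 1744 CPM in a group otherwise at 46.2 to 207.6 CPM, and the log2 fold change was -3.91, or -6.32 without that library.

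Lists of mesenchymal and vascular cells were also lower in hypothalamus on the TMM scale, on which 35% of all tested entries were called lower. All 10 tested entries of the smooth muscle and fibroblast list were called lower, 7 of them under all 4 scalings, with a median log2 fold change of -5.47. The fibroblast miRNA miR-199a-3p, from the Dnm3os transcript and a second locus, had 185, 58.9, 156, 734 and 144 CPM in hypothalamus and 1125, 1577, 876.1, 1500 and 1740 CPM in muscle, a log2 ratio of -5.44 (SE 0.77, adjusted p = 3.64e-05), or -6.39 without replicate 4. Its reads are shared with miR-199b-3p. The smooth muscle miRNA miR-143-3p had 34675, 14723, 19135, 16559 and 6270 CPM in hypothalamus and 19020, 22285, 16828, 16592 and 16742 CPM in muscle, groups that overlapped, with -3.21. For its neighbour miR-145a-5p the log2 fold change was -3.83. All 5 tested red blood cell entries were lower under all 4 scalings, at -5.40 to -5.31, of which 4 are the shared reads of miR-486a and miR-486b. The list thus rests largely on miR-486, and miR-486a-5p had a mean of 261 CPM in muscle against 18.3 CPM for miR-451a. For miR-451a, the erythroid miRNA that is cut by Argonaute2, the CPM were 2.77, 4.74, 3.78, 19.6 and 2.22 in hypothalamus and 8.93, 10.8, 23.7, 18.4 and 29.5 in muscle. The groups overlapped, and hypothalamus held 30 counts of it in all. The miRNA of endothelial cells miR-126a-3p, from Egfl7, had 4903, 3993, 6112, 4858 and 2196 CPM in hypothalamus and 3523, 4304, 3469, 4932 and 5130 CPM in muscle. The CPM ranges overlapped, and the log2 fold change was -3.17 with TMM and 0.05 with total count. The 7 tested leukocyte entries were called lower with TMM, and 5 of them changed sign among the scalings, such as miR-146a-5p, at -1.35 with TMM and 1.83 with total count. The share of blood in each tissue was not tested.

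Of the liver list, 3 entries were tested and 0 were called with all 5 hypothalamus libraries. Without replicate 4 all 3 were called lower. The hepatocyte miRNA miR-122-5p had 201, 103, 113, 17083 and 323.1 CPM in hypothalamus and 494.1, 61.7, 52.6, 198 and 41.2 CPM in muscle, and its log2 fold change was 1.63, or -2.82 without replicate 4. For miR-192-5p it was 0.36, or -0.90 without it. Of 6 tested brown fat entries 3 were called lower, among them miR-365-3p at -4.30, and 0 higher, against 35% and 45.7% over all tested entries. The other 2 called lower, named after their values were seen, were miR-193a-5p and miR-193b-3p.

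**Figure D4:**
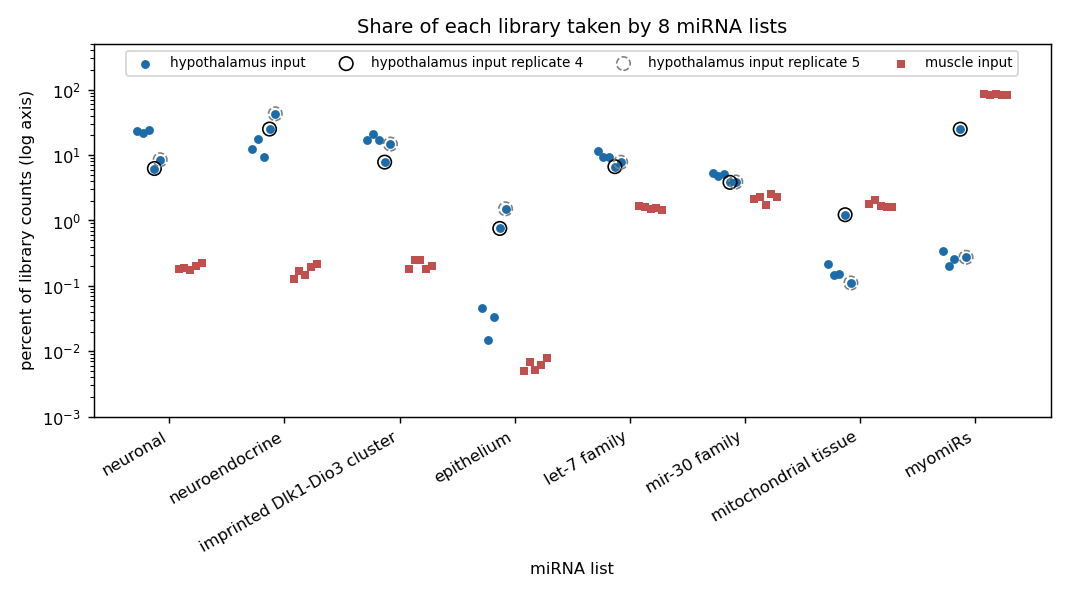
Percent of library counts taken by 8 miRNA lists (log axis) in each hypothalamus library (circles, left) and muscle library (squares, right), with hypothalamus replicates 4 and 5 ringed. The myomiRs hold 83.1% to 86.5% of muscle counts, 24.9% of hypothalamus replicate 4 and under 1% of the other hypothalamus libraries, while the let-7 and miR-30 families are a larger share in hypothalamus.

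Families found in most tissues fell between these extremes. With TMM, 35% of all tested entries were called lower and 45.7% higher. Of 12 tested miR-30 entries, 12 were called lower with TMM, of 9 miR-15 and miR-16 entries 9, of 3 miR-26 entries 3, and of 9 entries of the miR-23/24/27 clusters 8. For miR-30 and miR-26 the shares of the library pointed the other way. The miR-26 entries together took 1.49% to 3.18% of hypothalamus counts and 0.754% to 1.22% of muscle counts, and the miR-30 entries took 3.83% to 5.36% of hypothalamus counts and 1.71% to 2.54%, and all 12 miR-30 entries changed sign among the scalings. For miR-26a-5p the log2 fold change was -2.05 with TMM and 1.20 with total count, for miR-27b-3p -2.46 and 0.75, and for miR-16-5p -2.35 and 0.89. Of 19 tested let-7 entries, 12 were called lower, 2 higher and 5 neither, with a median of -0.75, and 16 changed sign among the scalings. The let-7 entries took 6.65% to 11.6% of hypothalamus counts and 1.47% to 1.67% of muscle counts. For let-7f-5p the log2 fold change was -0.89 with TMM and 2.30 with total count.

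Within these families single members had a call that held under all 4 scalings. The 2 let-7 entries called higher were both arms of let-7e, which is clustered with miR-125a and miR-99b on chromosome 17. For let-7e-5p, chosen after its value was seen, the CPM were 1283, 884, 1720, 786 and 924 in hypothalamus and 56.9, 50.2, 39.99, 55.5 and 49.5 in muscle, a log2 ratio of 1.22 (SE 0.20, adjusted p = 0.000103). In the miR-17/92 group 10 of 12 tested entries were called lower, and the 2 called higher were the arms of miR-92b. For miR-92b-3p (chr3:89227126-89227147, minus strand) the CPM were 408 to 1048 in hypothalamus (median 716) and 1.8, 4.22, 2.65, 2.75 and 3.53 in muscle, a log2 ratio of 4.61 (SE 0.30, adjusted p = 1.37e-07). For miR-25-3p, which has the same seed, they were 548, 448, 419, 309 and 355 in hypothalamus and 189, 245, 236, 187 and 186 in muscle, with -2.20 on the TMM scale and 1.00 with total count. Of 6 tested miR-29 entries, miR-29b-3p was called higher, with 1286, 1694, 8762, 1288 and 863 CPM in hypothalamus, 95.2, 174, 144.8, 62.4 and 65.8 CPM in muscle and 1.26. For miR-29a-3p, of the same seed, the log2 fold change was -0.26 and not called. Of 7 tested miR-181 entries, 4 were called higher, against 45.7% over all tested entries. Among the 4 were miR-181c-5p at 2.31 and its cluster neighbour miR-181d-5p at 2.55, both from an intron of Nanos3. The 1 entry called lower, miR-181a-2-3p, was lower under all 4 scalings. Of 10 tested entries of the miR-125 and miR-99 families, 3 were called higher and 3 lower, against 45.7% and 35% over all tested entries. Without hypothalamus replicate 4 these were 7 and 3. For miR-99a-5p the log2 fold change was -1.02 with TMM and 2.26 with total count. For miR-125b-5p it was 0.31 and not called, or 0.61 and called higher without replicate 4. Outside the lists, miR-22-3p was lower under all 4 scalings, with 2496, 2948, 7919, 7336 and 1811 CPM in hypothalamus, 7528, 12865, 9621, 12508 and 12747 CPM in muscle and -4.49.

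The ratio of the 2 arms of a hairpin is taken within a library and does not depend on the scaling. Hairpins were tested with limma on the log2 ratio of 5p to 3p counts, and 35 were called (22.7%) and 119 were not. Of the 35, 11 had a higher 5p share and 24 a higher 3p share in hypothalamus. With the mouse as a replicate block these were 5 and 13. Of the 35, 19 had an arm with under 50 counts in a tissue and 7 shared reads with another entry. Of the 51 hairpins with at least 50 counts of each arm in each tissue and no shared reads, a limit set after the data were seen, 12 were called (23.5%). They were miR-409, miR-185, miR-434, miR-411, miR-708, miR-29c, miR-127, miR-143, miR-221, miR-335, miR-423 and miR-139. Of these miR-434, miR-221 and miR-423 had the higher 5p share in hypothalamus.

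The arm with more reads differed between the tissues in 4 called hairpins, miR-409, miR-434, miR-708 and miR-335. The arms of the first 3 are given here with their seeds in capitals, since the arms of a hairpin differ in seed.
miR-409-5p: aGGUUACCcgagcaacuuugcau
miR-409-3p: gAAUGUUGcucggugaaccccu
miR-434-5p: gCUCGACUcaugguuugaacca
miR-434-3p: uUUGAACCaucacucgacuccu
miR-708-5p: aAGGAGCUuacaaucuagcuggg
miR-708-3p: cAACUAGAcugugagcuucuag
Both miR-409 and miR-434 belong to the imprinted chromosome 12 region. The 5p arm of miR-409 made up 21.6, 25.02, 23.6, 33.3 and 27.6 percent of its counts in hypothalamus replicates 1 to 5 and 56.8, 52.3, 62.2, 62.9 and 56.8 percent in muscle. The groups did not overlap, and the log2 ratio differed by -1.98 (SE 0.23, limma adjusted p = 0.000148). The 5p arm of miR-434 made up 54.7, 62.5, 55.6, 58.4 and 64.4 percent in hypothalamus and 31.5, 36.3, 33.8, 32.9 and 35.95 percent in muscle. The direction was opposite to that of miR-409, with a difference of 1.49 (SE 0.20, limma adjusted p = 0.000286). For miR-708, from an intron of Tenm4, the 5p arm made up 16.04, 12.9, 34.1, 33.6 and 16.1 percent in hypothalamus and 55.0, 58.1, 41.8, 59.8 and 57.5 percent in muscle, a difference of -2.14 (SE 0.40, limma adjusted p = 0.00204). For miR-335 it made up 31.4, 42.3, 68.1, 40.7 and 38.3 percent in hypothalamus and 61.6, 73.1, 66.4, 63.5 and 71.0 percent in muscle. Hypothalamus replicate 3 lay inside the muscle range, and the difference was -1.37 (SE 0.38, limma adjusted p = 0.0209). Muscle held few of these reads, 420 for miR-409 and 387 for miR-708 over 5 libraries.

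**Figure D5:**
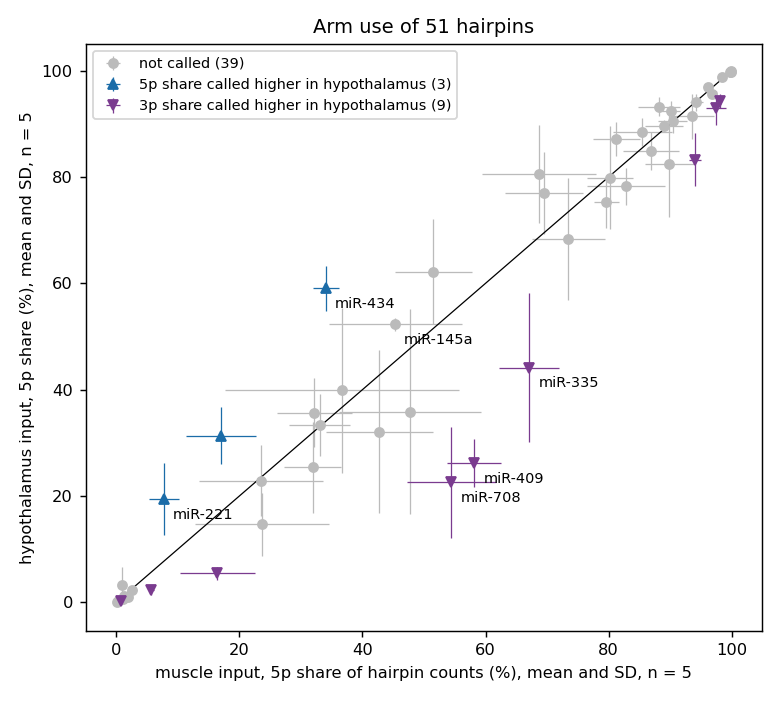
Share of the 5p arm in a hairpin's counts in hypothalamus (y axis) and muscle (x axis) for the 51 hairpins with both arms counted, mean and SD over 5 libraries; the line marks equal shares. Most hairpins lie on the line, miR-409, miR-708 and miR-335 lie below it and miR-434 and miR-221 above it.

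Counts were also summed over entries with one seed, for the 1610 entries with a sequence. Those entries covered 66.7% to 93.5% of hypothalamus counts but 10.1% to 12.9% of muscle counts. Entries without a sequence included miR-1a-3p, miR-133a-3p, miR-143-3p, miR-378a-3p, miR-124-3p and miR-375-3p. Sums of their seed families leave them out. Of 286 seed families tested, 140 (49%) were higher and 95 (33.2%) lower in hypothalamus. The GGAAGAC seed of miR-7a and miR-7b took 20.3% ± 11.7 of counts in hypothalamus and 0.158% ± 0.033 in muscle (SD, n = 5 each). It took 13.1% ± 4.00 over hypothalamus replicates 1 to 3 (SD, n = 3), where the CUUUGGU seed of miR-9-5p took 12.6% ± 1.13 and was ahead of it in replicates 1 and 3. The GAGGUAG seed of let-7 took 8.89% ± 1.86 in hypothalamus and 1.55% ± 0.081 in muscle, and its log2 fold change was -0.66 with TMM.

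Neighbouring hairpins were compared by position. Among hairpins on 1 strand with gaps of at most 10000 bases, 37 clusters had at least 2 tested hairpins, with entries made at several loci counted at each. On the TMM scale every tested entry was called higher in 9 clusters and lower in 12. Over all tested entries 45.7% were called higher and 35% lower. Several of the 12 hold families whose sign changed among the scalings. It changed in 12 of 12 tested miR-30 entries, 16 of 19 let-7, 8 of 9 miR-15 and miR-16, and 9 of 12 miR-17/92 entries. Without hypothalamus replicates 4 and 5 all entries kept their TMM call in 6 of the 9 clusters and in all 12. The 3 lost were the cluster of miR-200a, miR-200b and miR-429, that of miR-141 and miR-200c, and that of miR-182 and miR-183. In 3 clusters both directions were called, namely the 2 stretches of the chromosome 12 imprinted region (chr12:109563692-109595388 and chr12:109709060-109747960) and the miR-29b-2 and miR-29c pair on chromosome 1.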

How the data were processed

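Small RNA was measured in 40 libraries, of which the 5 hypothalamus and 5 muscle inputs are used here. The authors deposited estimated counts per mature miRNA entry, that is, expected counts that need not be whole: 18.3% of the positive values were whole within 0.001. Per the submitters' processing notes the tools were fastp, STAR and featureCounts with the build mm10, and versions were not given. Per the labels' protocols RNA was extracted with Trizol and chloroform and libraries were made with a NEBNext small RNA kit. Reads that fit several entries appear split or repeated: 22 pairs of entries kept a constant ratio over libraries, and are taken as sharing reads. Pairs not named as such above include miR-338-3p with miR-3065-5p, miR-338-5p with miR-3065-3p, miR-126a-3p with miR-126b-5p and miR-142a-3p with miR-142b.

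Here the estimated counts were rounded first, a step that moved no library total by more than 0.0368%. Entries passing filterByExpr by tissue (460 of 1894, of which 1066 had any count) were fitted with edgeR 4.0.16 in R 4.3.3 (quasi-likelihood test, TMM, two-sided, Benjamini-Hochberg adjusted p under 0.05). Arm ratios, log2 of (5p + 0.5)/(3p + 0.5), were tested with limma 3.58.1 for hairpins with at least 20 counts in at least 4 libraries of each tissue. Seed families were sums over entries sharing bases 2 to 8 and were tested as single entries were. The tests of single entries and of arm ratios were also run on simulated counts, and that of seed families was not. A log2 change of 1 was recovered in 54% of changed entries and 50% of changed hairpins. For a log2 change of 3 these were 92% and 90%. Of the unchanged, 2.69% of entries and 7.02% of hairpins were called. The simulated tissues had the same mean profile, with as many rises as falls, so that the difference in miR-1 share was absent. Simulated arm ratios had a single set spread between libraries for every hairpin. These rates are therefore not error rates of the calls reported here. Intervals and floors (95%, 3 counts) cover counting error only. Total counts ran from 152980 to 5562423, so that entries of few counts are least certain in hypothalamus replicate 4. Pairing comes from the labels, which give the mouse: 3 mice gave both tissues, with correlations of their deviations from the tissue means of 0.02, 0.14 and 0.07. The mouse was no covariate since 7 mice gave 10 libraries and only 3 gave both. Alternatives were other scalings, filters and tools (DESeq2 1.42.0, limma-voom), blocks, and leaving out libraries; leaving out replicates 4 and 5 together was added after the data were seen. Positions and sequences came from RefSeq on GRCm38.p6 and host genes from GENCODE. The members, lists and tests were chosen with earlier results of these data known. Named miRNAs were those with the largest changes at a mean of at least 100 CPM, the 6 most abundant of a tissue, and up to 4 of the most abundant of each list; others are marked. Figures used Python 3.11.15 and matplotlib 3.10.9.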

Additional observations from a re-analysis of the deposited data

Results flagged for a closer look

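In groups of 5 libraries, the highest or lowest library was set apart where its gap to the nearest of the others exceeded 0.71 of the group's range (Dixon's 95% value). The groups are those of the named miRNAs in the same libraries and are not independent, so that a chance rate of 1 in 20 does not apply to their count. Of 158 groups tested 15 stood out (9.49%), and 12 of the 15 were hypothalamus replicate 4 as the highest of its group. The myomiRs among them were miR-1a-3p at 178996 CPM, miR-133a-3p at 8646 CPM, miR-206-3p at 1227 CPM, miR-133b-3p at 210.5 CPM and miR-133a-5p at 78.41 CPM. The miR-378 entries were miR-378c at 707 CPM, miR-378a-5p at 111.9 CPM and miR-378b at 91.22 CPM. The Hox entries were miR-196a-5p at 52.28 CPM and miR-196b-5p at 19.6 CPM. The liver entries were miR-122-5p at 17083 CPM and miR-192-5p at 5249 CPM. Hypothalamus replicate 3 was the highest of its group for miR-153-3p, at 1593 CPM. In muscle, replicate 2 was the lowest for miR-448-3p, at 0 CPM, where the other 4 were at 0.106 to 0.133 CPM. All 5 were 0 counts after rounding, so that no library stood apart by a whole count. Replicate 5 was the highest for miR-873a-5p, at 0.5999 CPM, which is 2 counts against 0 or 1 in the others.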

How the results depend on the processing

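Of 1814 values of 79 named miRNAs over 23 alternatives, 1716 kept their direction and side of the threshold, 56 were weaker, 7 stronger and 35 reversed. The causes were not tested. With total count, 378 entries were higher and 34 lower in hypothalamus, and log2 fold changes reversed to 2.30 for let-7f-5p, 3.01 for let-7g-5p, 0.048 for miR-126a-3p, 0.13 for miR-142a-3p, 1.83 for miR-146a-5p, 0.71 for miR-149-5p, 1.58 for miR-150-5p, 0.89 for miR-16-5p, 1.00 for miR-25-3p, 1.20 for miR-26a-5p, 0.75 for miR-27b-3p, 3.03 for miR-29a-3p, 0.50 for miR-30a-5p, 1.76 for miR-7a-1-3p and 2.26 for miR-99a-5p. Let-7g-5p and miR-29a-3p also reversed without the miR-1 entries (0.62 and 0.66), with no filter (0.13 and 0.063) and with all 20 inputs (0.45 and 0.40). Leaving out 1 library moved miR-122-5p between -2.82 and 2.44. For miR-122-5p and miR-192-5p the values were -1.73 and -0.56 with voom and -2.82 and -0.90 without hypothalamus replicate 4. Without hypothalamus replicates 4 and 5 they were -3.81 and -1.26, with -0.77 for miR-182-5p, -1.06 for miR-200a-3p, -1.18 for miR-200b-3p, -1.80 for miR-200c-3p and -1.72 for miR-375-3p. With the replicate block by number, which marks one mouse only for replicates 4 and 5, they were -1.51 and -0.44; 157 entries were called lower. With the replicate block by mouse miR-125b-5p gave -0.13, calls were 180 and 147, and arm calls 5 (5p) and 13 (3p). Arm calls were 7 and 12 at 100 counts, 6 and 11 with 50 counts of each arm, and 4 and 9 also without shared reads; leaving out 1 library gave 7 to 12 and 17 to 26. Seed families with no filter gave 232 higher and 159 lower. Depth limits hypothalamus replicate 4 most.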
